A study of Mus musculus with 20 samples.

Results

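On mouse chromosome 11, the genes for myosin XVB, Caskin2 and Tsen54 lie close together, and their transcripts were measured in livers with and without estrogen receptor alpha after a single dose of estradiol (E2). The region was taken as every non-control probe placed by the array files between 115.64 and 115.78 Mb on build mm9, which gave 13 of 55681 probes for 7 genes over 118 kb. All 13 were among the 30961 probes kept, which had to exceed background clearly, by the scanner software's own call, on 4 or more of the 5 arrays in any group. Myosin XVB probe 2 was kept through the wild-type E2 group alone, and the other 12 were well above background in every group. The region was chosen with results of these arrays known, and its response to E2 in wild-type livers was taken as what chose it, so the wild-type values below are a description and were not tested.

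The 4 groups were ERa null mice given E2, ERa null mice given placebo, ERa wild-type mice given E2, and ERa wild-type mice given placebo, with 5 animals and 1 array per animal in each. Every mouse had its ovaries removed at the age of 4 weeks and was 9 weeks old when E2 (1 mg/kg) or the placebo, castor oil with 5% ethanol, was given by gavage, and livers were taken 4 hours later. Per the labels, the null genotype is ERa-/- and the wild type ERa+/+, both from the same parents, and no Cre or tissue-specific promoter is named. Levels are log2 intensities relative to the 75th percentile of the array, so a value of 0 is that percentile, and levels of different probes are not set against each other. Animals are listed in the order 1 to 5 of their labels.

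Estrogen receptor alpha is a nuclear receptor that binds E2 and then acts on genes through DNA elements and partner factors, and it is the main estrogen receptor of hepatocytes. Class XV myosins are actin-based motors, and the better known relative of myosin XVB, Myo15a, carries cargo to the tips of the stereocilia of inner ear hair cells. Caskin2 is a scaffold protein with ankyrin repeats and SAM domains, and Tsen54 is a subunit of the endonuclease that cuts introns out of precursor tRNAs. Of the neighbours, Llgl2 is a cell polarity protein, Recql5 is a RecQ DNA helicase, and Smim5 and Smim6, listed on the array as 2210020M01Rik and 1110017F19Rik, are small integral membrane proteins.

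The 4 probes for myosin XVB sit on the plus strand in a row, and they did not behave alike, so their sequences are shown with those of Caskin2 and Tsen54. Probes 1 and 4 carry the transcript name ENSMUST00000093911, probe 2 carries ENSMUST00000040703, and probe 3 carries the identifier TC1770290 with the description of a Myo15b protein fragment. Between successive probes lie 15864, 58 and 4558 bases. The positions are chr11:115732776-115732835 for probe 1, chr11:115748700-115748759 for probe 2, chr11:115748818-115748877 for probe 3 and chr11:115753436-115753495 for probe 4. Sequences run 5′ to 3′ and are whole 60-base probes or 30 bases of one, and capitals mark a polyadenylation hexamer, AATAAA or ATTAAA.
myosin XVB, probe 1: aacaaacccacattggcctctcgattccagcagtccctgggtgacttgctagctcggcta
myosin XVB, probe 2: tagaggatgcttAATAAAtaaccttggttt
myosin XVB, probe 3: tattgggcctctgggctagatggtgggtac
myosin XVB, probe 4: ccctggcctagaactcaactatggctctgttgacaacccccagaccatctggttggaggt
Caskin2: gggcccagactcttacaactgtacataata
Tsen54, first probe: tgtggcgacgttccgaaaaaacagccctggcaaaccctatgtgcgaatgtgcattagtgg
Tsen54, second probe: tcgtgccataaagccaaagccATTAAAaaa

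Probe 2 and the second Tsen54 probe hold such a hexamer, as do 13.7% of the 55681 probes on the array for either spelling. No member probe shares a run of 20 bases with another probe of the array. G and C made up 35% of the Caskin2 probe, 40% of myosin XVB probe 2 and 55% of each of the other 3 myosin XVB probes. They made up 51.7% and 43.3% of the Tsen54 probes, 35% of the second Llgl2 probe and 38.3% of the Smim6 probe. The remaining probes had 51.7% to 55%. An mm9 annotation was not used here, so the exon, intron or UTR status of a probe is not given.

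The brightest of 3 kept Esr1 probes, which report the targeted gene, was at -1.63 ± 0.31 in null E2 livers and -1.61 ± 0.48 in null placebo livers, against 0.60 ± 0.41 in wild-type E2 livers and 0.39 ± 0.25 in wild-type placebo livers (log2 level, SD, n = 5 each). The labels do not say whether it lies in the deleted part of the gene. The 8 hepatocyte markers had mean log2 levels of 8.44 to 9.01 on all arrays. Between 51.6% and 70% of spots were well above background per array, with both the highest array and an array at 54% in the wild-type E2 group. Correlations across probes were 0.978 to 0.994 between arrays of the same group and 0.975 to 0.993 between arrays of different groups.

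In wild-type livers, 5 of the 13 probes, belonging to 3 genes, were higher after E2 with no overlap between the E2 and placebo animals. Over all kept probes, 0.901% were higher without overlap in this comparison, and since the region was taken to be chosen on it, nothing is read from the difference. Myosin XVB probe 2 stood highest above placebo, followed by myosin XVB probe 4, and Caskin2 and both Tsen54 probes lay about 1 log2 unit above placebo. The other 8 probes, for Llgl2, Recql5, Smim5, Smim6 and myosin XVB probes 1 and 3, overlapped between the groups.

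Myosin XVB probe 2 had log2 levels of 0.55, 0.27, 0.35, 0.92 and 0.19 in wild-type E2 livers, against -5.86, -5.73, -5.20, -7.08 and -4.96 in wild-type placebo livers. It was well above background on 5 of 5 wild-type E2 arrays and on 0 of 5 wild-type placebo arrays, so the placebo level was not measured. On the processed intensities, E2 livers were 41-fold higher when dim placebo arrays were raised to the lowest signal called well above background there. That signal is not a strict limit for this probe. Null E2 animal 1 was not called at -4.71, where the lowest called level on its array was -5.3. The 41-fold value does not carry over to the other background treatments below, whose fitted differences were smaller. Levels in null E2 livers were -4.71, -4.82, -5.46, -6.73 and -4.63 and in null placebo livers -5.83, -4.43, -6.35, -5.02 and -6.55. In each null group 1 of 5 arrays was well above background, animal 5 with E2 and animal 2 with placebo. The fitted difference of E2 minus placebo in wild types, 6.22 ± 0.45 (log2, SE), depends on how dim signals were processed. It was 2.99 with normexp background correction, which here added an offset of 50 to every signal. In the values the authors deposited, which followed the log2 median signal, it was 3.58. An added offset shrinks log2 differences of dim spots, and its share in the change was not tested.

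Myosin XVB probe 4 was well above background on all arrays of every group. Its levels were -0.04, -0.65, -0.40, -0.32 and -0.58 in wild-type E2 livers, against -2.91, -2.87, -3.06, -3.19 and -3.06 in wild-type placebo livers, so every E2 animal was above every placebo animal. Null E2 livers had -2.95, -2.72, -3.32, -3.0 and -2.46, and null placebo livers had -2.85, -3.04, -2.78, -2.84 and -2.85, and these 2 groups overlapped. E2 minus placebo in wild types was 2.62 ± 0.14 (log2, SE), a 6.15-fold difference, and it was 1.53 with normexp background correction and the same offset.

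Probes 1 and 3 of myosin XVB did not separate the same animals. Probe 1, which shares its transcript name with probe 4, had levels of -2.59, -2.63, -2.81 and -2.50 in 4 wild-type E2 livers, with animal 3 left out because its spot was non-uniform, against -2.52, -2.71, -2.94, -2.97 and -3.09 in wild-type placebo livers. Probe 3, which starts 58 bases after probe 2 ends, had -2.06, -2.67, -2.87, -2.81 and -2.40 in wild-type E2 livers, against -2.49, -2.67, -2.53, -2.46 and -3.41 in wild-type placebo livers. The E2 minus placebo difference was 0.21 ± 0.16 for probe 1 and 0.15 ± 0.20 for probe 3 (log2, SE).

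**Figure D1:**
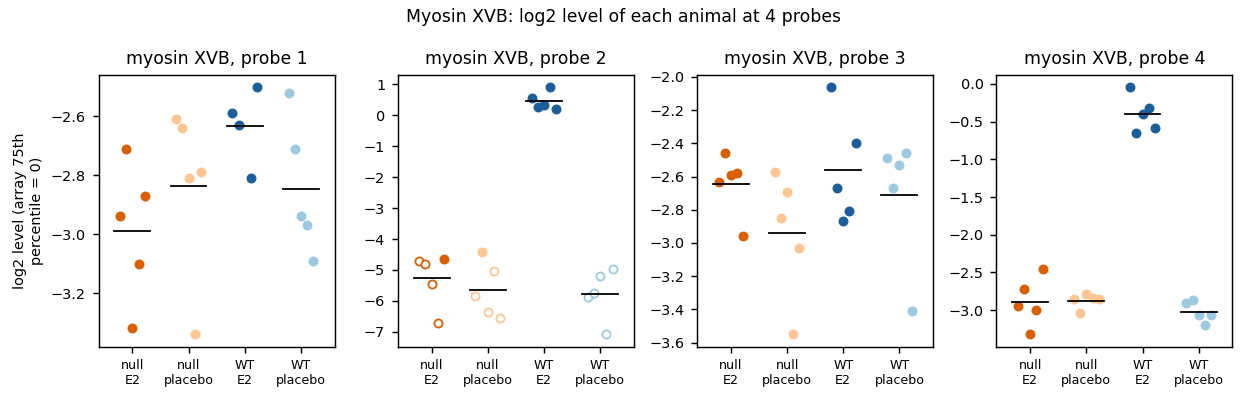
Log2 level of the 4 myosin XVB probes in each animal, relative to the array's 75th percentile, by group, with group means as lines and open circles for spots not well above background. Only probes 2 and 4 separate wild-type E2 livers from the other groups, and probe 2 lies between 0.19 and 0.92 in them.

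Caskin2, probed on the minus strand at chr11:115660675-115660734, had levels of 2.41, 1.80, 1.71, 1.98 and 1.63 in wild-type E2 livers, against 0.65, 0.84, 1.02, 0.79 and 0.83 in wild-type placebo livers. The lowest E2 animal stood above the highest placebo animal. Null E2 livers had 0.73, 0.77, 0.70, 0.64 and 1.06, and null placebo livers 0.61, 1.03, 0.77, 0.90 and 0.76. E2 minus placebo in wild types was 1.08 ± 0.13 (log2, SE), a 2.11-fold difference.

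Tsen54 was measured by a pair of plus-strand probes, at chr11:115683370-115683429 and chr11:115684332-115684391. The first had levels of 0.06, -0.42, 0.04, 0.45 and -0.13 in wild-type E2 livers, against -1.17, -0.98, -1.09, -0.98 and -0.83 in wild-type placebo livers. The second had 3.1, 2.9, 3.41, 3.78 and 3.15 in wild-type E2 livers, against 1.94, 2.31, 2.43, 2.44 and 2.32 in wild-type placebo livers. Both were highest in E2 animal 4 and lowest, within the E2 group, in animal 2.

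The wild-type differences of E2 minus placebo were 1.01 ± 0.15 for the first Tsen54 probe and 0.98 ± 0.15 for the second (log2, SE), 2.01-fold and 1.98-fold. In null E2 livers the first probe had -1.60, -1.42, -0.95, -1.45 and -1.17, against -0.99, -0.96, -1.47, -1.11 and -1.04 in null placebo livers. The second had 1.8, 2.0, 2.5, 1.92 and 1.99 in null E2 livers, against 2.24, 2.33, 2.04, 2.30 and 2.34 in null placebo livers. Over the 20 arrays, the centred levels of the Tsen54 probes differed by a root mean square of 0.13 log2 units, and those of Caskin2 and the Tsen54 probes by 0.26 and 0.28. Probes on other chromosomes came as close, with Tle4 at 0.21 from Caskin2 and Dsc2 at 0.19 from the second Tsen54 probe. Myosin XVB probe 4 differed from Caskin2 and the Tsen54 probes by 0.65 to 0.72, and probe 2 by 2.23 to 2.26.

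The neighbouring genes overlapped between wild-type E2 and placebo livers. Llgl2, probed at chr11:115716565-115716836 and chr11:115716998-115717057, averaged 2.11 ± 0.13 in wild-type E2 livers and 1.88 ± 0.19 in wild-type placebo livers at the first probe, and 2.71 ± 0.11 and 2.46 ± 0.18 at the second (SD, n = 5). Recql5, on the minus strand at chr11:115754814-115754873 and chr11:115778296-115778355, differed by 0.13 ± 0.14 and 0.41 ± 0.21 (log2, SE) between wild-type E2 and placebo livers. Smim5 (chr11:115767346-115767405) differed by 0.31 ± 0.24 and Smim6 (chr11:115775163-115775222) by 0.17 ± 0.16. All 13 differences were above 0 on the 75th percentile scale, where the median over all kept probes was 0. With arrays scaled on their median, which moved the median of all probes by -0.22, the 8 overlapping probes ran from -0.10 to 0.18, and the 5 separated ones stayed above 0.

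**Figure D2:**
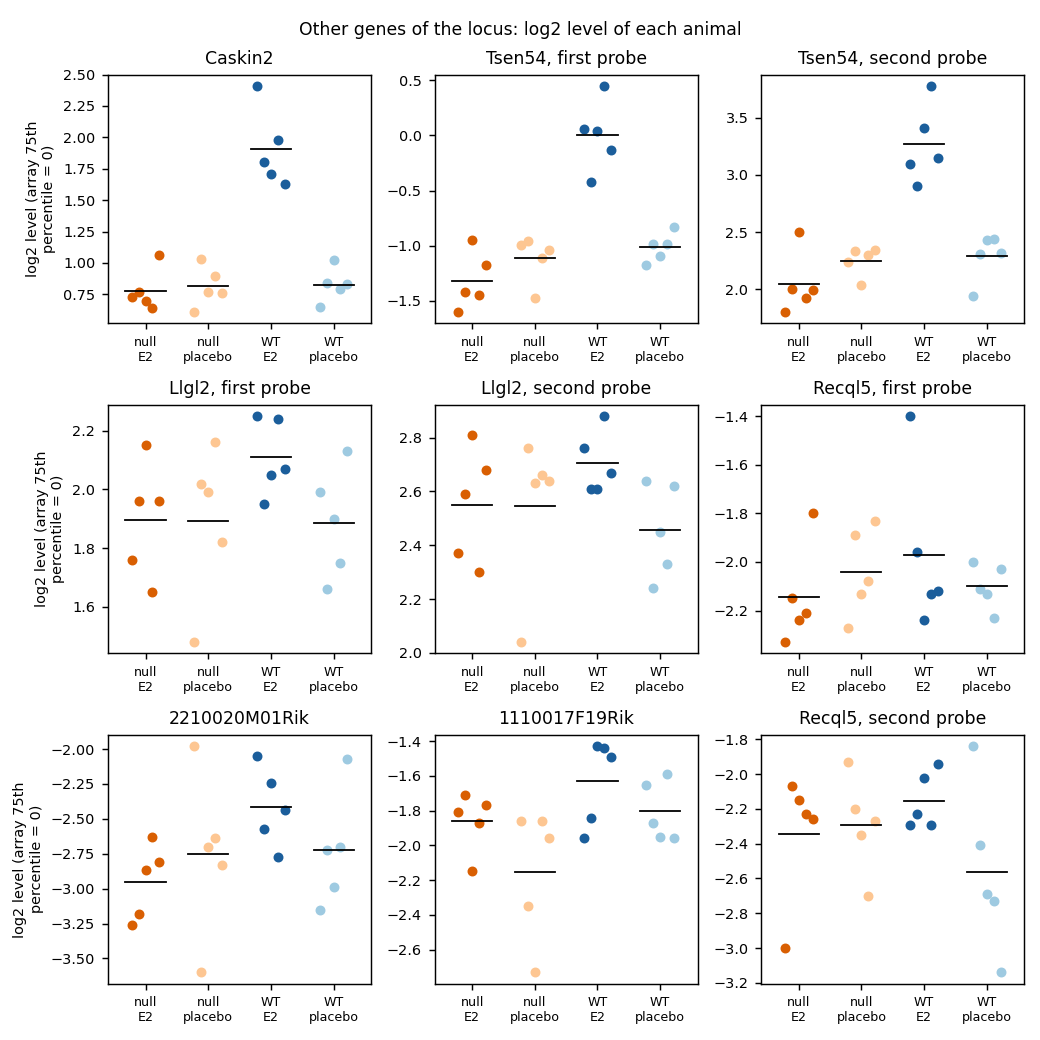
Log2 level of the other probes of the region in each animal, relative to the array's 75th percentile, by group, with group means as lines. Caskin2 and both Tsen54 probes stand higher in wild-type E2 livers, where Caskin2 lies between 1.63 and 2.41, and the remaining probes overlap between groups.

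Each slide held several groups, and 3 of 4 slides held both wild-type groups. Within those slides the E2 minus placebo difference was 0.98 to 1.27 for Caskin2, 0.99 to 1.04 and 0.81 to 1.22 for the Tsen54 probes, 6.05 to 7.53 for myosin XVB probe 2 and 2.33 to 2.97 for probe 4 (log2). Each of these differences rests on 1 placebo array and on 1 or 2 E2 arrays. Animal numbers below 750 occurred for 2 wild-type E2 animals and 0 wild-type placebo animals, and for 2 null E2 animals and 3 null placebo animals. The genotypes therefore differed in this under placebo as well. Without animals numbered below 750 the wild-type differences were 0.94, 1.13, 1.16, 6.25 and 2.59 for Caskin2, the first and second Tsen54 probes, and myosin XVB probes 2 and 4. The 4 erythroid markers had mean levels of 3.48 to 3.84 in wild-type E2 livers, against 2.84 to 3.31 in wild-type placebo livers, and of 3.30 to 3.73 in null E2 livers, against 3.51 to 4.02 in null placebo livers. The 7 Kupffer cell markers ran from 1.51 to 3.33 in wild-type E2 livers and from 1.39 to 2.49 in wild-type placebo livers. In null livers they ran from 1.84 to 2.75 with E2 and from 1.48 to 2.49 with placebo. Their part in the result was not tested, and in pieces of liver fewer cells of a type cannot be told apart from less RNA per cell. Adipoq, Plin1 and Lep, the 3 adipocyte markers, were not kept as measured, and no marker of any list passed the test for E2 in either genotype.

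The E2 effect in null livers was tested at the members, on the reading that wild-type values alone chose the region, and if null values also entered the choice these results are a description too. Of the 12 probes measured in both null groups, 0 passed an adjusted p of 0.05 by limma over all 30961 kept probes, and 0 had an unadjusted p below 0.05. Over all 13 probes, myosin XVB probe 2 included, that second count was also 0. It was 2 of the 13 without null E2 animal 3, and 1 without null placebo animal 1 or without null placebo animal 4. Over all kept probes 0.00323% passed, and 6.03% had an unadjusted p below 0.05. For the 12 probes E2 minus placebo in null livers ran from -0.21 to 0.29 (log2), with adjusted p from 0.844 to 0.999 by limma.

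For Caskin2 the null difference of E2 minus placebo was -0.03, with a 95% interval of -0.31 to 0.24 (limma adjusted p = 0.989). The Tsen54 probes differed by -0.20 (interval -0.51 to 0.11, limma adjusted p = 0.896) and -0.21 (interval -0.53 to 0.11, limma adjusted p = 0.897). Myosin XVB probe 4 differed by -0.02 (interval -0.31 to 0.27, limma adjusted p = 0.992). Myosin XVB probe 2 was well above background on 1 of 5 arrays in each null group, so its difference of 0.37 compares mostly background signals and is not read as a test. No probe of the region had E2 and placebo nulls that did not overlap, against 0.846% of all kept probes.

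Set side by side, the E2 effect in null minus that in wild-type livers was -1.11 ± 0.18 for Caskin2, -1.21 ± 0.21 and -1.19 ± 0.22 for the Tsen54 probes and -2.64 ± 0.19 for myosin XVB probe 4 (log2, SE), given without a test because wild-type values enter them. For probe 4 it was -1.55 with normexp background correction. For myosin XVB probe 2, with 3 of 4 groups at or near background, the fitted value was -5.86 ± 0.64 (log2, SE), and it was -3.01 with normexp and -3.56 in the values the authors deposited. Under E2, the same 5 probes were lower in null than in wild-type livers without overlap, by a log2 difference of -1.12 for Caskin2, -1.32 and -1.23 for Tsen54 and -2.49 for myosin XVB probe 4, which was -1.48 with normexp. For probe 2, well above background on 1 of 5 null E2 arrays, the fitted difference was -5.72, and it was -2.95 with normexp and -3.53 in the deposited values. Over all kept probes 1.11% were lower without overlap in that comparison. Under placebo, null minus wild-type differences of the 13 probes ran from -0.35 for Smim6 to 0.28 for the second Recql5 probe, and 0 of 13 separated the genotypes, against 1.7% of all kept probes.

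**Figure D3:**
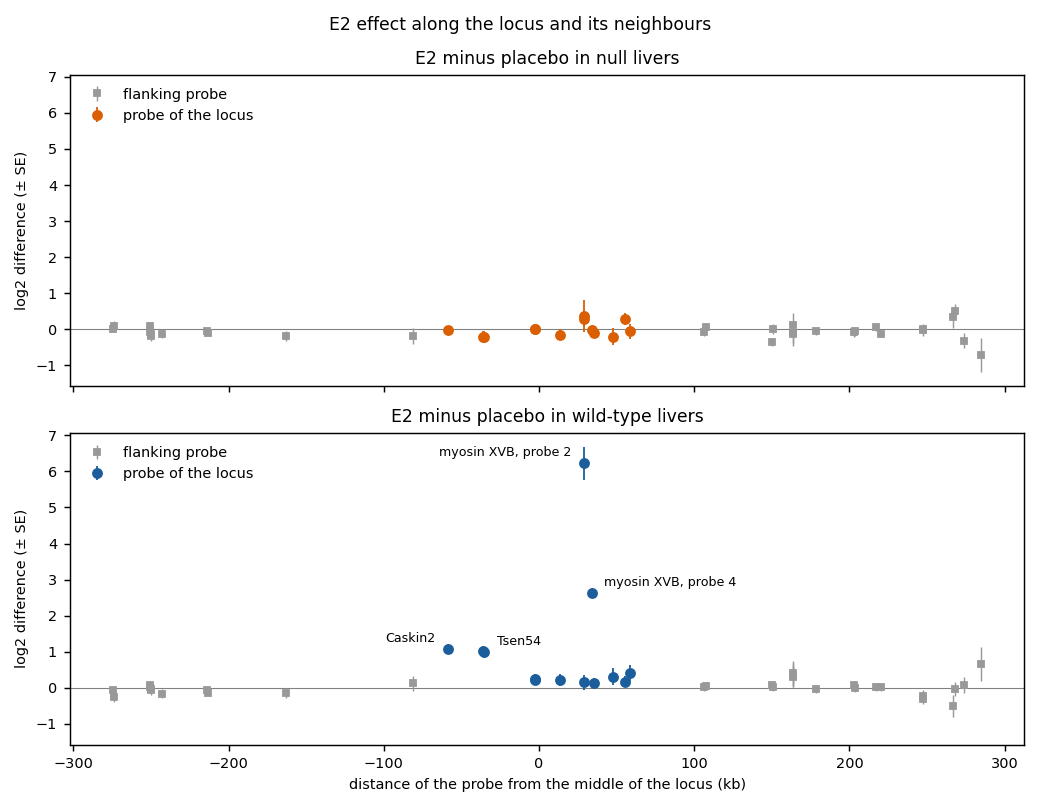
E2 minus placebo difference (log2, with standard error) of each probe of the region (colour) and of flanking probes (grey) against distance from the middle of the region in kb, with null livers above wild-type livers. In wild types 5 probes stand out, with myosin XVB probe 2 at 6.22, and in nulls all 13 lie between -0.21 and 0.37.

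Outside the region no neighbour passed the test for E2. Of 109 kept probes for 73 gene names within 1 Mb on either side, 0 passed for E2 in wild types, where 0.304% of all kept probes passed, and 0 in nulls. With so few probes a count of 0 is near the share of all kept probes, so nothing is read from it. An unadjusted p below 0.05 was found for 2 in wild types (1.83%, against 8.31% of all kept probes) and 6 in nulls (5.5%, against 6.03%). The wild-type count rested on single animals and on scaling, being 9 without wild-type E2 animal 4 or without wild-type placebo animal 1, 0 without wild-type placebo animal 3 and 8 with median scaling, so no difference from all kept probes is read from it. The nearest probe before the window, 2310067B10Rik at 1.3 kb, had a wild-type difference of 0.12 ± 0.22 (SE, limma adjusted p = 0.916), and D930050J11, farther before, had -0.15 (limma adjusted p = 0.808). The nearest after it, a pair of Sap30bp probes at 45.9 and 46.8 kb, differed by 0.02 and 0.06 (limma adjusted p = 0.976 and 0.905). The nearest members inside the edges were Caskin2 and the second Recql5 probe, at 1.08 and 0.41.

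Among 31 measured genes on 3 lists, for tRNA splicing, Caskin and CASK, and unconventional myosins, 0 passed for E2 in wild types. Of all kept probes 0.304% passed there. In nulls 0 of the 31 passed, where 0.00323% of all kept probes did. A count of 0 among so few genes is near the background in both. Of the 10 other measured genes for tRNA splicing endonuclease and tRNA ligase, 0 passed, with wild-type differences from -0.04 to 0.10 and a median of 0.02, against 0 over all kept probes. The endonuclease subunits Tsen15 and Tsen34 had -0.04 and -0.04, next to about 1 for Tsen54. Of 18 measured unconventional myosins 0 passed, with -0.13 to 0.39 and Myo9a at the top. Of the Caskin and CASK list only Cask, Lin7a and Lin7c were measured, at -0.15, 0.02 and 0.13, and 0 passed. In wild types 0 genes of these lists had an unadjusted p below 0.05, against 8.31% of all kept probes, and in nulls 1 of each list did, against 6.03%. Over the alternatives the 3 lists together held 0 to 1 such genes in wild types and 1 to 5 in nulls.

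Likeness was measured as the root mean square difference of centred log2 levels over the 20 arrays. Kept probes outside the region with a current gene symbol were ranked by it. The genes most like the mean of myosin XVB probes 2 and 4 were Mmd2, Flrt1, Krt4, Corin and Hrob, at 0.76 to 0.82. The median over the ranked probes was 1.91. Since probe 2 was not well above background on 13 of the 20 arrays, this ranking rests partly on background signal. For Caskin2 they were Tle4, 9430038I01Rik with both of its probes, Baiap2l1 and Twnk, at 0.21 to 0.24, where the median was 0.56. For the second Tsen54 probe they were Dsc2, Tle4, 9430038I01Rik, Kif16b and E2f2, at 0.19 to 0.29, where the median was 0.57. All points share the same 20 arrays, and the largest part of each pattern is the wild-type E2 group.

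**Figure D4:**
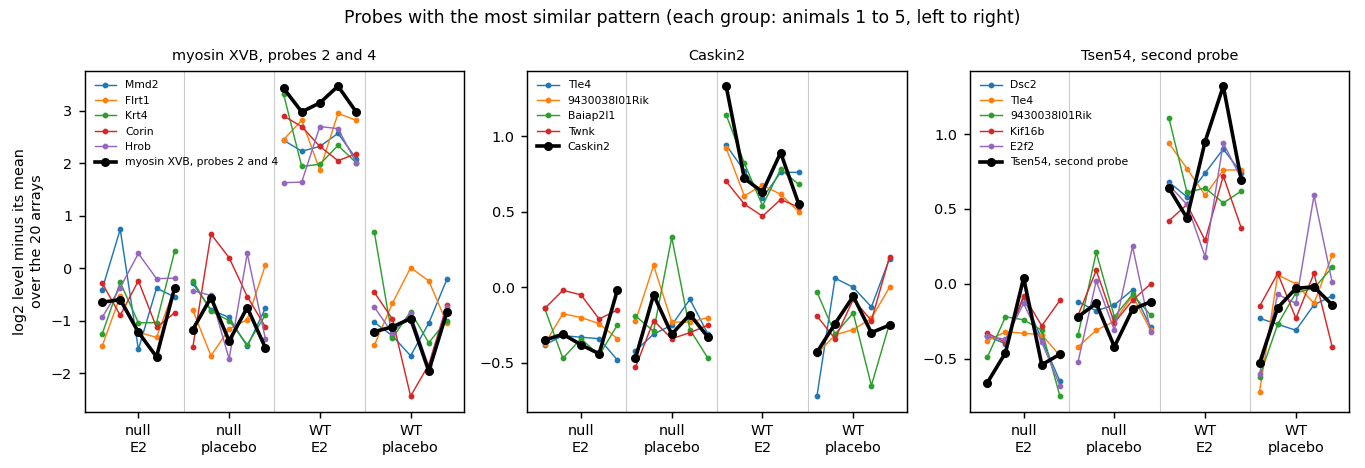
Centred log2 level over the 20 arrays of myosin XVB probes 2 and 4, Caskin2 and the second Tsen54 probe (black) and of the genes with the smallest difference from each. In the Caskin2 panel 9430038I01Rik is the mean of its 2 probes. Each is highest on average in wild-type E2 livers.

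Promoter sequences from RefSeq (GRCm38.p6), each of 300 bases around the gene start, were at hand for Tsen54, Myo15b, Recql5 and Smim6, and those of Tsen54 and Myo15b are shown because both Tsen54 probes and 2 of the 4 myosin XVB probes were higher after E2 in wild types. The intervals are chr11:115814489-115814788 and chr11:115857675-115857974, both on the plus strand.
Tsen54 promoter: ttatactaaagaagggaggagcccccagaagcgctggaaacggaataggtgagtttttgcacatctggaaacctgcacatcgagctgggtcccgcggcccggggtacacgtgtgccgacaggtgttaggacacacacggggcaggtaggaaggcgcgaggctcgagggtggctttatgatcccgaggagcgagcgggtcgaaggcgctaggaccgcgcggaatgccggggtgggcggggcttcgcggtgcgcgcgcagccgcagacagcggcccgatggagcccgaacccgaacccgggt
Myo15b promoter: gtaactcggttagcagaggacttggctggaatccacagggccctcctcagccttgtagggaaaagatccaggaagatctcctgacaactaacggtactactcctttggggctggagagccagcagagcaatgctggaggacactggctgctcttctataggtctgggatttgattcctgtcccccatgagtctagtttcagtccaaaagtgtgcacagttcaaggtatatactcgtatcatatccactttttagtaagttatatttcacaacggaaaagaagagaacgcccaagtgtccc

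An estrogen response element spelled as GGTCA, any 3 bases and TGACC, searched on both strands, was in 0 of the 4 promoters and in 0.07% of the 32851 promoters in the table. Its GGTCA part, searched on both strands and overlapping the longer motif, was in 0 of the 4 and in 40.5% of all. These letters are not in these windows, and nothing follows from that about binding elsewhere.

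**Figure D5:**
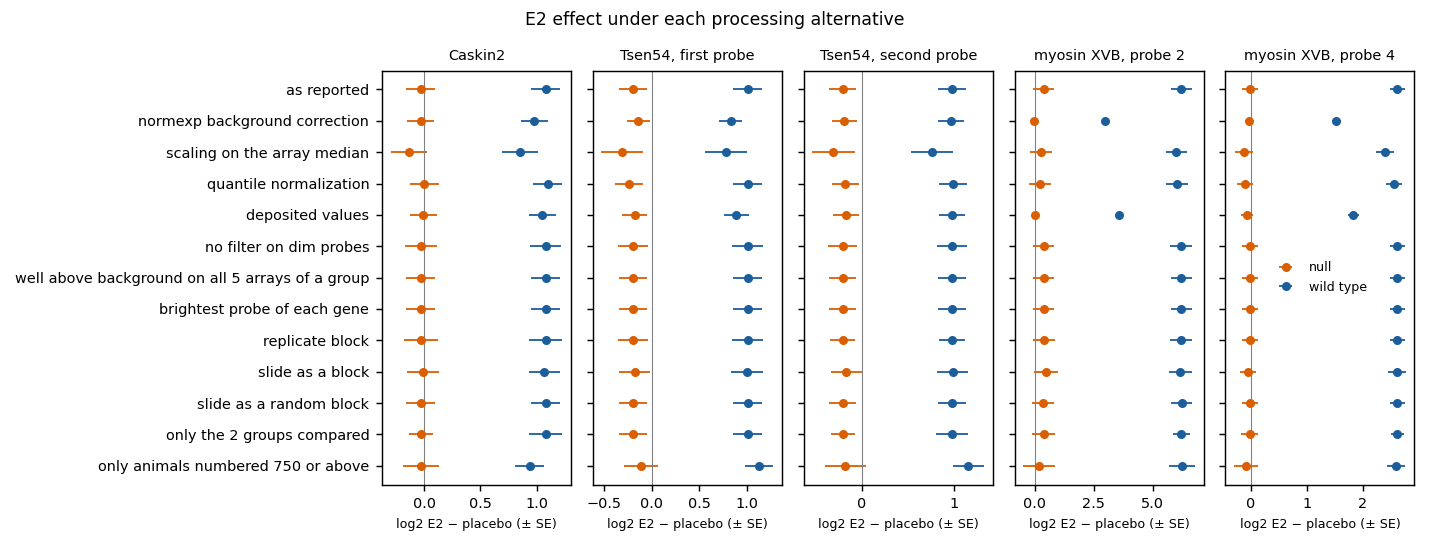
E2 minus placebo difference in null and wild-type livers (log2) of the 5 probes with no overlap in wild types, under each processing alternative. The wild-type values stay above 0 in each, and that of myosin XVB probe 2 runs from 2.99 to 6.25. The probes were picked for this difference, so its sign is not a test.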

How the data were processed

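RNA from 20 livers was hybridised to 1-colour Agilent arrays. Per the file headers, Agilent Feature Extraction 10.10.1.1 gave the deposited processed intensity of each spot, background-subtracted and detrended, and placed probes on mm9. The authors also deposited log2 values for 32526 probes, which followed the log2 median signal of each array (correlation 0.9987 to 1) with column medians of 7.846 to 7.852, and the submitters' processing notes name limma. Here log2 processed intensity minus the array's 75th percentile was used. Spots marked non-uniform (0 to 16 on an array) were dropped, none was saturated, and replicate spots were averaged. Groups came from the labels. The 4 group means were fitted to 20 arrays (16 residual degrees of freedom) in R 4.3.3, using limma 3.58.1 (and data.table, version 1.17.8, to read files), 2-sided, with Benjamini-Hochberg adjustment over 30961 probes at a threshold of 0.05. Errors are SD of 5 animals or SE of the fit, and the number of arrays limits the precision. For myosin XVB probe 2, the 41-fold value sets each dim array at the higher of the probe's own signal and the lowest signal well above background on that array. Such a value holds for the processed intensities only and is not a strict lower bound. The fit was also tested on simulated data.

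Probes were named by accession (27235), current symbol (3581) or synonym (565) through a RefSeq table of another build, used for names only, and 24300 kept the array's name. Members and gene lists were chosen with earlier results of these data known. Named were all probes of the region, passing list members, the nearest kept probes on each side, the 5 nearest patterns for each profile, and Esr1. Tsen15, Tsen34, Myo9a and the CASK list are named beyond that rule as examples, after their values were seen. Alternatives covered background correction (normexp with an offset of 50), scaling, the filter, probe choice, blocks and left-out animals.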

Additional observations from a re-analysis of the deposited data

Results flagged for a closer look

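In 7 of 52 groups of member values, 1 animal stood apart from the other 4 by Dixon's test at the 95% level, which chance does in about 1 in 20 groups. The second Tsen54 probe was high in null E2 animal 3, at 2.5 with the nearest other animal at 2.0, and low in wild-type placebo animal 1, at 1.94 with the nearest at 2.31. The second Llgl2 probe was low in null placebo animal 1, at 2.04 with the nearest at 2.63. Recql5's second probe was low in null E2 animal 1, at -3.0 with the nearest at -2.26.

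For myosin XVB, probe 1 was low in null placebo animal 4, at -3.34 with the nearest at -2.81, and probe 3 was low in wild-type placebo animal 5, at -3.41 with the nearest at -2.67. Probe 4 was low in null placebo animal 2, at -3.04 with the nearest at -2.85. None of the 7 values belonged to a wild-type E2 animal.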

How the results depend on the processing

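Under 32 alternatives, 20 of which each left out 1 animal, 0 members passed for E2 in nulls (smallest limma adjusted p 0.641), and 0 flanking probes and 0 list members passed in wild types. The 5 wild-type differences kept their sign in all 32. These probes were picked for not overlapping, so leaving out an animal could not change the sign. Over all probes, 94 passed for E2 in wild types, 40 with median scaling and 59 with animals numbered 750 or above, and 70 to 112 with 1 animal left out. In nulls 1 passed, 0 with median scaling, without the filter on dim probes, with only the 2 groups compared or with animals numbered 750 or above, 2 with the replicate block or the slide as a block, and 0 to 4 with 1 animal left out. The cause was not tested.

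Replicate numbers were not used as pairs in the fit. Same-number correlations of deviations ran from -0.15 to 0.24, with 9 of 30 above 0.1. Correlations of different-number arrays were not set beside them, so these values cannot show whether the numbers pair animals. The replicate block gave 118 calls in wild types. The dim placebo spots limit myosin XVB probe 2, whose wild-type difference was 2.99 with normexp and 3.58 in the deposited values, and probe 4 gave 1.53 and 1.83. The normexp values include the added offset. Caskin2 gave 0.85 with median scaling.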
